A study of Mus musculus with 8 samples.

Results

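IAAPs (injury-activated alveolar progenitors) are lung cells of the Sftpc lineage that express the tdTomato reporter at a low level. Their course over days 4, 7 and 14 of tamoxifen was followed in mice bred to delete Fgfr2b. Fgfr2b is the epithelial isoform of a fibroblast growth factor receptor. The members were the 3 arrays labelled experimental with low tdTomato (E-IAAPs), of 8 arrays in the series, with 1 array for each day. The E-IAAP mice carried SftpCreERT2/+; Fgfr2bflox/flox; Tomatoflox/flox, were of both sexes, 9 to 12 weeks old, and drank tamoxifen at 1 mg/ml. The cells with high tdTomato of experimental mice (E-AT2s) had 1 array on each of the same days, and their values are given beside those of E-IAAPs. Mice without the floxed Fgfr2b allele, also carrying SftpCreERT2/+; Tomatoflox/flox and given tamoxifen, gave 1 array of AT2s and 1 of IAAPs at day 7, which were not compared here. Cre was driven from Sftpc, so the deletion and the reporter both depend on Sftpc-expressing cells, and the population rests on a reporter level. Since each day had 1 array, no difference between days has a replicate check and no test was run. A gene was counted as higher or lower where its log2 signals differed by 1 or more, that is 2-fold.

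The distal lung is lined by alveolar type 1 cells, across which gas is exchanged, and alveolar type 2 cells (AT2s), which make lipid-rich surfactant. Airways are lined instead by club cells, which secrete secretoglobins and metabolise foreign compounds, and by multiciliated cells, whose beating cilia move mucus. Foxj1 and the RFX factors are transcription factors that switch on the genes of motile cilia. Alveolar macrophages live on the surfactant layer, beside the alveolar epithelium.

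The labelled cell type was checked against its markers on the 3 E-IAAP arrays. The AT2 markers Sftpc, Sftpb, Sftpa1, Abca3 and Lamp3 were all bright, with Lamp3 at log2 signals of 13.48, 13.64 and 13.43 on days 4, 7 and 14. Markers of alveolar macrophages were bright as well. Siglecf, a sialic acid receptor of these macrophages, read 12.14, 12.11 and 12.91, against 4.47, 5.24 and 5.85 in E-AT2s. Ptprc, the pan-leukocyte antigen Cd45, read 12.79, 12.38 and 12.75, against 7.67, 8.41 and 8.09 in E-AT2s. A background level was set for each array as the 95th percentile of 1401 sensory receptor genes, which was 6.45, 6.91 and 7.28 on the E-IAAP arrays. Of 31 alveolar macrophage genes, 31, 29 and 28 lay above it on days 4, 7 and 14. Krt5 of basal cells, Ly6g of neutrophils, Pecam1 of endothelium and Col1a1 of fibroblasts were below it on every day. Other genes listed for these cells lay above it. On days 4, 7 and 14 these were 6, 5 and 6 of 13 basal and 12, 16 and 14 of 30 neutrophil genes. For endothelium they were 7, 9 and 6 of 25 genes, and for fibroblasts 8, 9 and 8 of 29. In bulk arrays, fewer cells of a type and less RNA per cell cannot be told apart. Fgfr2 had signals of 11.83, 11.39 and 10.87. Whether its spot lies in the deleted exon is not given in the sources used here, so it does not check the deletion. By genomic PCR, the study found the mutated locus in part of the E-IAAP DNA after the shorter tamoxifen course. It reports that the mutated locus was no longer detected in these cells after the longer course. The E-IAAP arrays are therefore not read here as arrays of deleted cells.

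Day and animal cannot be told apart. Xist, transcribed from the inactive X chromosome of females, read 6.27, 5.94 and 13.30 in E-IAAPs and 7.28, 6.13 and 13.52 in E-AT2s. Eif2s3y, on chromosome Y, read 10.95, 10.91 and 2.14 in E-IAAPs and 11.33, 10.66 and 2.69 in E-AT2s. By these sex-linked genes both day 14 arrays thus read as female and the 4 arrays of days 4 and 7 as male. Sex and day 14 therefore cannot be told apart, in E-IAAPs or in E-AT2s. The part of this difference in the results at day 14 was not tested. Signals of the 3 E-IAAP arrays correlated at 0.971 between days 4 and 7, 0.959 between days 4 and 14 and 0.956 between days 7 and 14, across 24306 genes, which are not independent.

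Among 9267 genes with a signal of 8 or more on at least 1 of the 3 arrays, 619 were higher at day 14 than the mean of days 4 and 7 (6.68%) and 346 were lower (3.73%). In E-AT2s the same comparison gave 143 higher (1.61%) and 207 lower (2.33%) of 8903 genes. The median difference over the 9267 genes was -0.01 in E-IAAPs. Of the E-IAAP calls 64.1% were on the higher side, and 51.4% when each array was centred on the median of its named genes, which lowered the day 14 differences by 0.12. Day 7 against day 4 gave 456 genes higher (4.92%) and 275 lower (2.97%). A late rise, with day 14 past 2-fold above each earlier day, was seen in 462 genes (4.99%) and a late fall in 202 (2.18%). A peak at day 7 was seen in 125 genes (1.35%), a trough at day 7 in 111 (1.2%), a stepwise rise over both intervals in 50 (0.54%) and a stepwise fall in 5 (0.054%). Of the late rise genes, 318 reached a signal of 8 at day 14 alone, so they passed the filter only through the array where they were high. Genes with a mean signal of 8 or more were therefore counted too, of which 290 of 8090 were higher at day 14 (3.58%) and 237 lower (2.93%). At the thresholds, the last gene counted as higher differed by 1.0034 and the first one left out by 0.9999, and the signals on either side of 8 were 8.0001 and 7.9999. Of the late rise genes, 45 were past 2-fold higher at day 14 in E-AT2s too, and of the late fall genes 17 were lower in E-AT2s too. No signal filter in E-AT2s was set for these counts, so the E-AT2 shares above are over another set of genes. On all 3 E-AT2 arrays 189 of the late rise genes were below background.

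**Figure D1:**
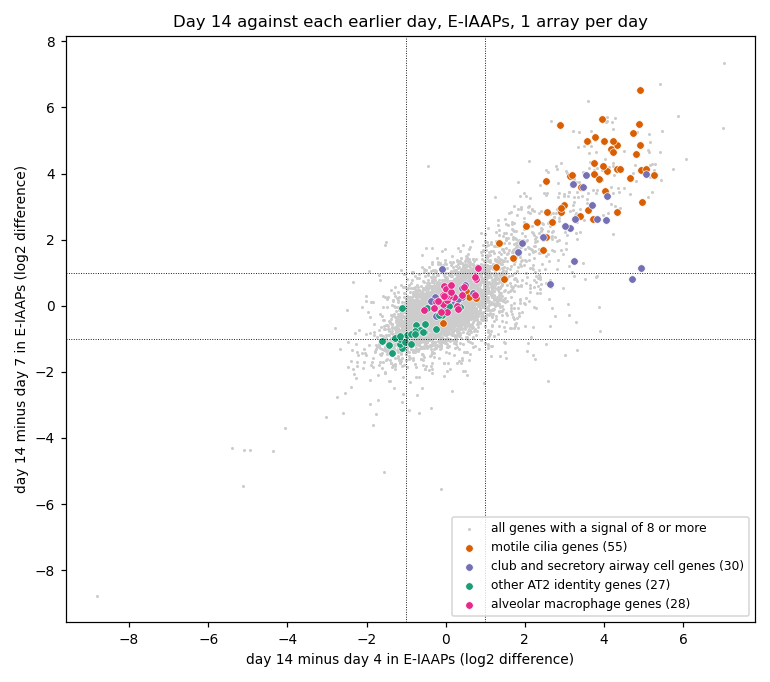
Log2 difference of day 14 from day 4 (horizontal) and from day 7 (vertical) in E-IAAPs for 9267 genes (grey) and 4 gene lists (coloured), with dotted lines at 2-fold. Most motile cilia genes (orange) lie past 2-fold above both earlier days, alveolar macrophage genes (pink) lie mostly between the lines and AT2 identity genes (green) lie mostly below 0 on both axes.

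Genes of motile cilia were far higher at day 14. Of 68 list genes on the array, 55 reached a signal of 8, of which 49 were higher and 0 lower at day 14, against 6.68% higher over all genes. The median difference over all 68 was 3.35, and 66 of the 68 differed upward. In the 29 with a mean signal of 8 or more, 24 were higher and 0 lower. Median list signals were 6.46, 6.66 and 9.84 on days 4, 7 and 14 in E-IAAPs and 4.91, 4.94 and 5.18 in E-AT2s, where the median difference was 0.17. Between days 4 and 7 the median difference was 0.05, with 4 of the 55 higher (against 4.92% of all genes) and 6 lower (against 2.97%). The number of the 68 above the array background was 34, 33 and 63.

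Foxj1, which switches on the cilia program, read 7.35, 8.68 and 12.62, a stepwise rise with day 14 at 24.4-fold over the mean of the earlier days. Its signals in E-AT2s were 3.26, 4.19 and 4.27. Dnah5, an axonemal dynein heavy chain of the outer arms, read 8.62, 8.05 and 12.37, which is 16.3-fold. Ccdc153, a marker of ciliated cells, read 8.86, 8.91 and 12.74. Each of these genes was above background on all 3 arrays, with day 14 far above both earlier days, while Foxj1 alone of them also differed past 2-fold between days 4 and 7.

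Many others were below background before day 14, so only a lower bound can be given for their folds. Cfap44, a cilia and flagella associated protein, read 6.34, 6.55 and 11.14 and was at least 22.0-fold higher. Tekt1, which encodes a tektin of the axoneme, read 5.60, 4.98 and 10.49 and was at least 14.0-fold higher. Ccdc40, needed to place the inner dynein arms, read 5.47, 5.50 and 10.37 and was at least 12.9-fold higher. Rsph4a, a radial spoke head protein, read 4.36, 2.73 and 9.27 and was at least 6.01-fold higher, and Drc1 of the nexin-dynein complex read 4.07, 3.58 and 8.81 and was at least 4.38-fold higher. Odf3b read 8.11, 6.42 and 12.06, below background on day 7 alone, and was at least 23.4-fold higher.

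Of the 55 genes that reached a signal of 8, 6 were not past 2-fold. Tubb4b, a tubulin, read 13.70, 13.79 and 14.19. The spot named Mcidas read 14.13, 14.19 and 14.64 and lay between 13.95 and 14.48 on the other 5 arrays. Ccdc114 read 12.74, 12.65 and 12.72, and Hdc, the histamine-forming enzyme, 12.22, 12.66 and 12.15. The remaining genes short of 2-fold were Cdhr3 and Dnah11.

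Because the cilia genes were higher together, their promoters were searched for the X-box, the site bound by RFX factors, spelled here as GTNNCC and GNAAC with 3 bases between them, and searched on both strands from 250 bases before to 50 after each gene start. RefSeq promoters (build GRCm38.p6) matched 56 of the 71 list genes. Of these, 12 held a match (21.4%), against 2.49% of all 27025 genes with a promoter, 3% of the genes with a signal of 8 and 10.1% of late rise genes. A forkhead site spelled TGTTTAC, the core that forkhead factors share, was found in 4 of the 56 (7.14%) and in 4.05% of all genes, and no match overlapped an X-box match. No X-box match lay in the promoters of the 26 club and secretory genes, which says only that these letters are not in that window. Of the 12 cilia genes with a match, 6 were late rises, out of 39 late rise cilia genes with a promoter, and 6 were not, out of the other 17. For each of the 6 late rise genes 1 match is shown, to give the letters found. Each is 60 bases long, 5′ to 3′ on the strand of the gene, with the match in capitals. Pifo and Tekt4 held 2 matches each, of which the first is shown. In Cfap44, Lrriq1 and Hydin the capitals match the motif as its reverse complement, and in Pifo, Enkur and Tekt4 as printed.
Cfap44, chr16:44394749-44394808, plus strand: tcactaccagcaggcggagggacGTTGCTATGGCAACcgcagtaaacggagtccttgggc
Lrriq1, chr10:103236305-103236364, minus strand: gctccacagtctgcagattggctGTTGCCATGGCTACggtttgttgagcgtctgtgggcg
Hydin, chr8:110266933-110266992, plus strand: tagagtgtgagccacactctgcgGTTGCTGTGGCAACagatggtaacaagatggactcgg
Pifo, chr3:106001532-106001591, minus strand: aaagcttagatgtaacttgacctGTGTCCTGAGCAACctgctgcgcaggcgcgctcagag
Enkur, chr2:21205341-21205400, minus strand: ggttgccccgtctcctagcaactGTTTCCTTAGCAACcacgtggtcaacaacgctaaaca
Tekt4, chr17:25471407-25471466, plus strand: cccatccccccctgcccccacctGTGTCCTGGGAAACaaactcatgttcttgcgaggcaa
Day 14 differences of these genes were 4.70 for Cfap44, 4.60 for Lrriq1, 4.27 for Hydin (a central pair protein of the axoneme), 3.25 for Pifo, 2.89 for Enkur and 1.58 for Tekt4. Of the other 6 genes with a match, 1 reached a signal of 8, Ccdc114, with a difference of 0.03. Ak9, Cfap45 and Zmynd10 differed by 3.41, 3.30 and 3.65 but stayed under a signal of 8, Ccno differed by 0.54, and Spag6l was below background on every day. A match describes the letters and does not show that a factor binds there.

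The regulators above the cilia genes were looked at in a list of 15 genes chosen after values were seen. Of the 9 that reached a signal of 8, 7 were higher at day 14 and 0 lower, against 6.68% higher over all genes, and with a mean signal of 8 it was 4 of 6. Rfx3, an RFX factor, read 10.51, 9.96 and 11.86, against 10.37, 10.36 and 10.35 in E-AT2s. Myb, which acts early in the making of multiciliated cells, read 4.52, 6.30 and 9.75 and was at least 8.36-fold higher at day 14. Trp73, a p53 family factor upstream of Foxj1, read 7.31, 8.35 and 9.50, past 2-fold higher in both intervals. Plk4, the kinase that starts centriole duplication, read 7.58, 6.87 and 8.73.

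Club and secretory airway genes were higher at day 14 as well. Of 38 on the array, 30 reached a signal of 8, of which 18 were higher and 0 lower, against 6.68% higher over all genes. The median difference over all 38 was 1.69. With a mean signal of 8 or more, 12 of 24 were higher and 0 lower. The median difference in E-AT2s was 0.02. Scgb1a1, the secretoglobin that defines club cells, was near the top of the scale on every day at 15.78 on day 4, 15.96 on day 7 and higher by 0.04 again on day 14, where a difference can hardly be seen. Its signals in E-AT2s were 14.44, 15.05 and 15.25.

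Scgb3a2, a secretoglobin of distal club cells, read 11.23, 11.90 and 14.94, which is 10.3-fold over the mean of the earlier days, while its 3 signals in E-AT2s all lay between 9.50 and 9.51. Cyp2f2, a cytochrome P450 of club cells, read 11.66, 12.44 and 14.80 in E-IAAPs and 10.22, 11.09 and 11.25 in E-AT2s. Aldh1a1, a retinaldehyde dehydrogenase, read 10.34, 11.07 and 14.40, and Cyp4b1, another P450, read 8.32, 7.90 and 11.87. Cldn10, a tight junction claudin, read 4.28, 5.35 and 9.34 and was at least 6.33-fold higher at day 14. In all 5 genes day 14 stood above both earlier days, which lay closer to each other.

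Secreted defence proteins of the airway differed in timing. Bpifa1, which coats the upper airway, read 9.54, 10.18 and 12.81, and Muc5b, the gel-forming mucin of conducting airways, read 5.99, 7.21 and 9.82. Reg3g, an antibacterial lectin, was already high at day 7, with signals of 5.97, 9.87 and 10.68, and Ltf (lactoferrin) likewise, with 4.28, 8.10 and 9.23. Scgb3a1 was stepwise, at 11.03, 12.92 and 14.26. Reg3g was at least 10.7-fold and Ltf at least 3.14-fold higher at day 7 than day 4, and neither was above background on any E-AT2 array.

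The foreign compound metabolism genes of club cells were described in a list of 29 chosen after values were seen. Of the 20 that reached a signal of 8, 13 were higher at day 14 and 0 lower, against 6.68% higher over all genes, with a median of 1.17 over all 29. With a mean signal of 8, 9 of 15 were higher. Cyp2a5 read 4.92, 6.53 and 11.92 and was at least 37.7-fold higher, and its near copy Cyp2a4 read 5.33, 5.25 and 10.46. The 2 genes are so alike that their spots may share target, so they are not independent. Cyp2s1 read 8.80, 8.57 and 12.59, and Gstm1, a glutathione transferase, 11.95, 11.99 and 13.63.

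**Figure D2:**
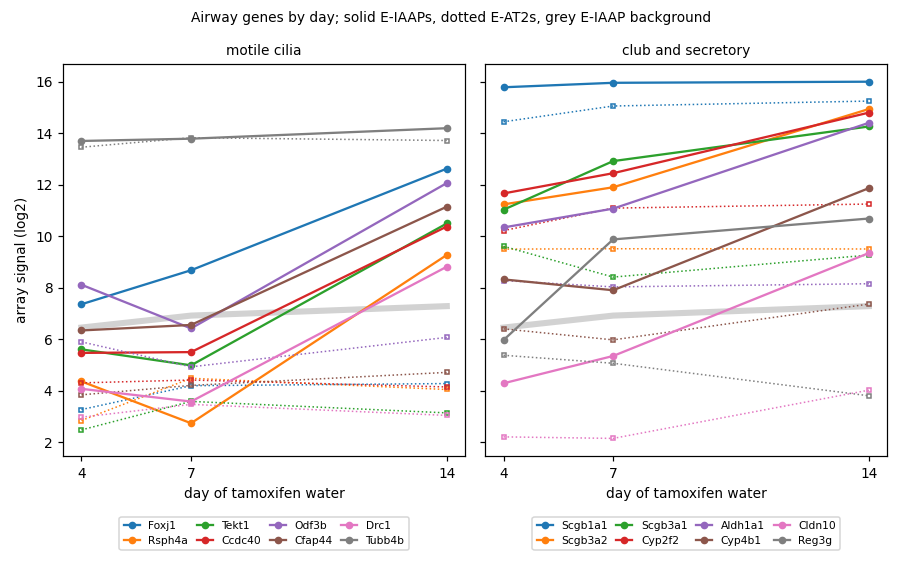
Log2 array signal against day of tamoxifen water for 8 motile cilia genes (left) and 8 club and secretory genes (right), 1 array per point, with E-IAAPs solid, E-AT2s dotted and the E-IAAP background in grey. Foxj1 goes from 7.35 to 12.62 and Scgb3a2 from 11.23 to 14.94 in E-IAAPs, while Tubb4b and Scgb1a1 stay near the top on every day.

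Of 13 basal cell genes, 5 reached a signal of 8, of which 2 were higher at day 14, against 6.68% of all genes, and with a mean signal of 8 it was 1 of 3. Aqp3, a water and glycerol channel, read 7.53, 6.80 and 10.69, and Itgb4, a subunit of the hemidesmosome integrin, read 6.83, 7.42 and 9.50. Krt5 was below background, and the spot named Trp63 read 14.30, 14.26 and 14.26 and no less than 13.92 on the other arrays. Of 21 neuroendocrine and tuft genes 5 reached a signal of 8, and 0 of them were past 2-fold at day 14.

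Late rises outside these lists, among the 15 largest, included Xist, Adamts5, Kcna6, Cfap299, Cfap58, Ccdc81, Clca1, Ccdc187 and Hs6st2. Clca1, a mucus-processing protein of goblet cells, read 4.98, 4.54 and 9.80 and was at least 8.71-fold higher. Adamts5, a protease that cleaves aggrecan, read 4.06, 2.77 and 9.48 and was at least 6.97-fold higher. Cfap299 and Cfap58 are named for cilia and flagella. Cfap299 read 3.47, 5.10 and 9.55.

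AT2, surfactant and lipid synthesis genes were lower at day 14, by less. All 27 genes of the AT2 identity list reached a signal of 8, and Sftpc among them stands in the surfactant list too. Of the 27, 10 were lower and 0 higher at day 14, against 3.73% lower over all genes. The median difference was -0.78 in E-IAAPs and -0.07 in E-AT2s, and 25 of the 27 differed downward. Day 7 against day 4 had a median of 0.01, with 1 gene past 2-fold, Ppp1r14c, at 11.11, 10.10 and 10.02. All 27 were above background on every E-IAAP array, so the low side is measured.

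Rnase4, a ribonuclease of the AT2 secretome, read 13.24, 13.31 and 11.88, which is 2.64-fold lower at day 14, against 13.16, 13.48 and 13.38 in E-AT2s. Slc26a9, an anion transporter, read 12.18, 11.64 and 10.58. Elovl1, which elongates fatty acids, read 13.47, 13.45 and 12.30. Bex2 read 15.19, 15.25 and 14.15. Cebpa, a transcription factor of AT2 maturation, read 15.17, 15.17 and 14.39, and Cxcl15, the lung chemokine, 15.32, 15.32 and 14.61, both short of 2-fold. In each of these genes day 14 was lowest, and days 4 and 7 lay within 0.1 of each other except in Slc26a9.

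Of the 11 surfactant genes, 3 were lower and 0 higher at day 14, against 3.73% lower over all genes. With a mean signal of 8 or more, 2 of 10 were lower. The median over the 11 was -0.39, against -0.01 in E-AT2s. Sftpc and the phosphate transporter Slc34a2 were near the top of the scale, Sftpc at 15.89, 15.97 and 15.96. Sftpb, whose protein spreads the surfactant film, read 14.75, 14.39 and 13.44, and Lpcat1, which makes its main phospholipid, 13.10, 12.71 and 11.80. Sftpd read 14.95, 15.02 and 14.76. Pgc was above background on day 7 alone, at 4.60, 8.09 and 3.05.

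Genes of lipid synthesis were lower as well. Of 31 genes on the array, 28 reached a signal of 8. At day 14, 8 of these were lower and 0 higher, against 3.73% lower over all genes. The median over the 31 was -0.57 in E-IAAPs and 0.22 in E-AT2s. Srebf1, the transcription factor of fatty acid synthesis, read 9.66, 9.79 and 8.30, against 10.26, 10.30 and 10.13 in E-AT2s. Acaca, which makes malonyl-CoA, read 10.52, 10.32 and 9.17, and Fasn, which builds fatty acids from it, 13.10, 12.84 and 11.67. The desaturase Scd1 read 15.02, 15.19 and 13.91, Scd2 13.32, 13.35 and 12.16, and Fads1 10.81, 10.59 and 9.36. Lss, of sterol synthesis, read 8.23, 8.00 and 6.71, below background at day 14 and at least 1.78-fold lower. Other sterol genes did not pass 2-fold, with Sqle at 11.37, 11.10 and 11.39 and Hmgcs1 at 13.72, 13.20 and 12.78. Scd1 and Fasn stand in both lists.

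Alveolar type 1 genes had a median of 0.19 over 23. Of 18 that reached a signal of 8, 3 were higher and 0 lower, against 6.68% higher over all genes. All 3 reached a signal of 8 at day 14 alone. With a mean signal of 8 or more, 2 of 16 were higher and 0 lower, with a median of -0.03. Hopx, a homeodomain protein of type 1 cells, read 7.14, 7.89 and 9.12, Sema3e 6.45, 7.13 and 8.49, and Cyp2b10 7.08, 7.85 and 9.31, with Cyp2b10 in E-AT2s at 7.69, 4.83 and 9.12. Ager, a receptor that marks type 1 cells, read 14.35, 14.31 and 14.17. Among genes of the transition from AT2 to type 1 cells, 1 of 15 was higher at day 14, against 6.68% of all genes. It was Krt8, at 10.13, 10.76 and 11.47. Epithelial genes as a whole stayed level, with a median of 0.21 over 24, and Epcam read 11.03, 10.88 and 11.21.

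**Figure D3:**
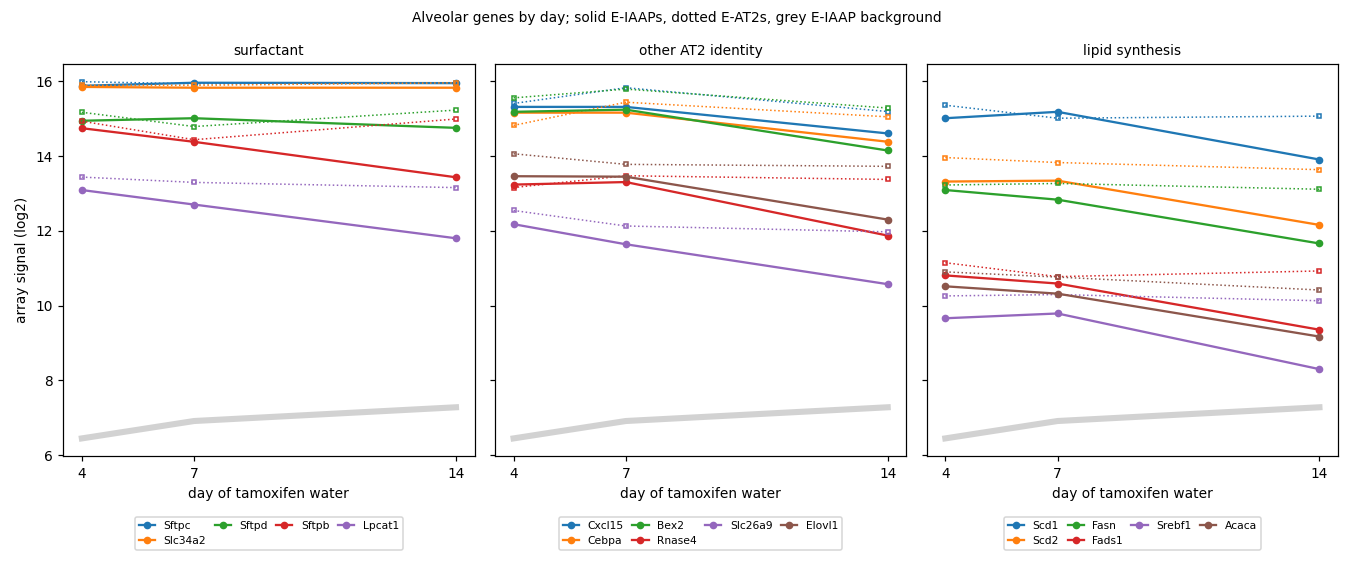
Log2 array signal against day of tamoxifen water for surfactant, other AT2 identity and lipid synthesis genes, 1 array per point, with E-IAAPs solid, E-AT2s dotted and the E-IAAP background in grey. Sftpc stays between 15.89 and 15.97, while Rnase4, Scd1 and Fasn are lowest at day 14 in E-IAAPs and level in E-AT2s.

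Alveolar macrophage genes were bright on every day and held none past 2-fold. Of 28 alveolar macrophage genes with a signal of 8, 0 were higher and 0 lower at day 14, and 0 either way at day 7, with medians of 0.20 and -0.25 over the 31 on the array. Chil3, a chitinase-like protein of macrophages, read 15.30, 15.03 and 15.37, and Marco, a scavenger receptor, 13.80, 13.45 and 13.56. In E-AT2s the median at day 14 was 1.00, with 14 of the 28 higher against 1.61% of all genes there, and 10, 12 and 18 of the 31 were above background on days 4, 7 and 14. Here and below, list counts past 2-fold in E-AT2s are over genes with a signal of 8 in E-IAAPs. The shares beside them are over the 8903 genes with a signal of 8 in E-AT2s. Marco in E-AT2s read 7.30, 7.15 and 9.95. General leukocyte genes gave 0 higher and 0 lower of 23 at day 14, with Itgb2, a leukocyte integrin, at 14.22, 14.15 and 14.21.

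Genes of antigen presentation were level at day 14, with 0 of 23 past 2-fold. H2-Ab1, of MHC class II, read 14.79, 14.21 and 13.86, and Cd74, its chaperone, 14.52, 14.55 and 14.19. At day 7, 4 were lower and 2 higher, against 2.97% and 4.92% of all genes. Clec9a, a receptor of cross-presenting dendritic cells, read 8.33, 5.69 and 6.64, and Ciita, the class II transactivator, 8.92, 7.36 and 8.21. Irf8, a transcription factor of dendritic cells and monocytes, had its low value at day 7 too, at 8.74, 7.61 and 8.69.

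At day 7, 3 of 11 neutrophil genes and 4 of 11 T and NK cell genes with a signal of 8 were higher than at day 4, against 4.92% of all genes, and 0 and 1 were lower. Of these, Il2rb and Tbx21 reached a signal of 8 at day 7 alone. They passed the filter only through the array where they were high. S100a9 and S100a8, abundant in neutrophils, read 6.46, 10.37 and 10.33 and 5.30, 8.32 and 8.39, while S100a9 in E-AT2s read 8.01, 7.33 and 7.92. With Ltf, which also stands in the neutrophil list, they were the 3 of 11 neutrophil genes higher at day 14, against 6.68% of all genes, and with a mean signal of 8 it was 1 of 9. Ly6g stayed below background at 4.21, 3.04 and 3.65. Gzma, a granzyme of cytotoxic cells, read 5.69, 10.34 and 8.99 and was at least 14.8-fold higher at day 7 than day 4. Il2rb, an interleukin-2 receptor chain, read 4.57, 9.44 and 7.15. Of 35 T and NK cell genes, 11 reached a signal of 8, and the day 7 median of 1.09 over the 35 rests mostly on signals below background, since it was 0.33 among genes with a mean signal of 8. The chains Cd3d and Cd3g stayed below background on every day.

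Of 8 B and plasma cell genes with a signal of 8, 2 were higher at day 7 than day 4 and 0 at day 14. Over all genes 4.92% were higher at day 7, and both B cell genes were peaks. Cd79b and Cd79a, the B cell receptor signal chains, read 7.71, 9.84 and 8.55 and 5.88, 9.19 and 6.86. Cd79a thus reached a signal of 8 at day 7 alone, the array where it was high. Cd79a read 5.0, 7.73 and 6.18 in E-AT2s, also highest at day 7. F13a1, a monocyte transglutaminase, read 6.37, 8.84 and 6.85, and Cx3cr1, a monocyte chemokine receptor, 6.18, 8.08 and 8.00. Of 18 interstitial macrophage and monocyte genes 6 were higher at day 7, against 4.92% of all genes. F13a1 among them reached a signal of 8 at day 7 alone. At day 14, 0 were higher, and 2 of the 18 were peaks. Median list signals on days 4, 7 and 14 were 4.76, 7.27 and 6.89 for 30 neutrophil genes, 7.68, 8.61 and 8.51 for 30 interstitial macrophage and monocyte genes and 4.59, 6.06 and 5.12 for 25 endothelial genes, with 7, 9 and 6 of the endothelial genes above background. Whether more of these cells in the day 7 sort had a part in the day 7 results was not tested.

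Of 17 chemokine and cytokine genes with a signal of 8, 5 were higher and 1 lower at day 7. Over all genes it was 4.92% and 2.97%. Cxcl5, a neutrophil attractant of alveolar epithelium, read 9.00, 10.88 and 8.39 in E-IAAPs and 8.70, 10.65 and 7.14 in E-AT2s. Ccl4 read 5.77, 8.03 and 6.85, so it reached a signal of 8 at day 7 alone. Cxcl12 read 5.54, 7.94 and 8.15. Interferon-stimulated genes had a median of 0.13 at day 14 over 58 genes. At day 7 their median was -0.38 in E-IAAPs, with 39 of the 58 below day 4, and -0.33 in E-AT2s. Of 24 with a signal of 8 in E-IAAPs, 2 were past 2-fold lower at day 7, against 2.97% of all genes. Ifitm3, which blocks virus entry, read 8.20, 9.16 and 10.40. It was 1 of 2 higher of 24 at day 14, against 6.68% of all genes. The checkpoint ligand Cd274 read 10.28, 9.51 and 10.53 and did not pass 2-fold. Of 10 checkpoint ligands with a signal of 8, 2 were lower at day 14, against 3.73% of all genes, and 0 higher. With a mean signal of 8 it was 1 of 9. The 2 were Vsir, at 7.30, 8.81 and 6.64, and Pvr, at 9.95, 10.56 and 9.17. Against day 4 alone they differed by -0.67 and -0.78, short of 2-fold. Vsir was a day 7 peak and reached a signal of 8 on that day alone. The study's other named markers were level, Cd33 at 9.01, 8.48 and 9.08 and Cd300lf at 9.96, 9.48 and 9.77.

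**Figure D4:**
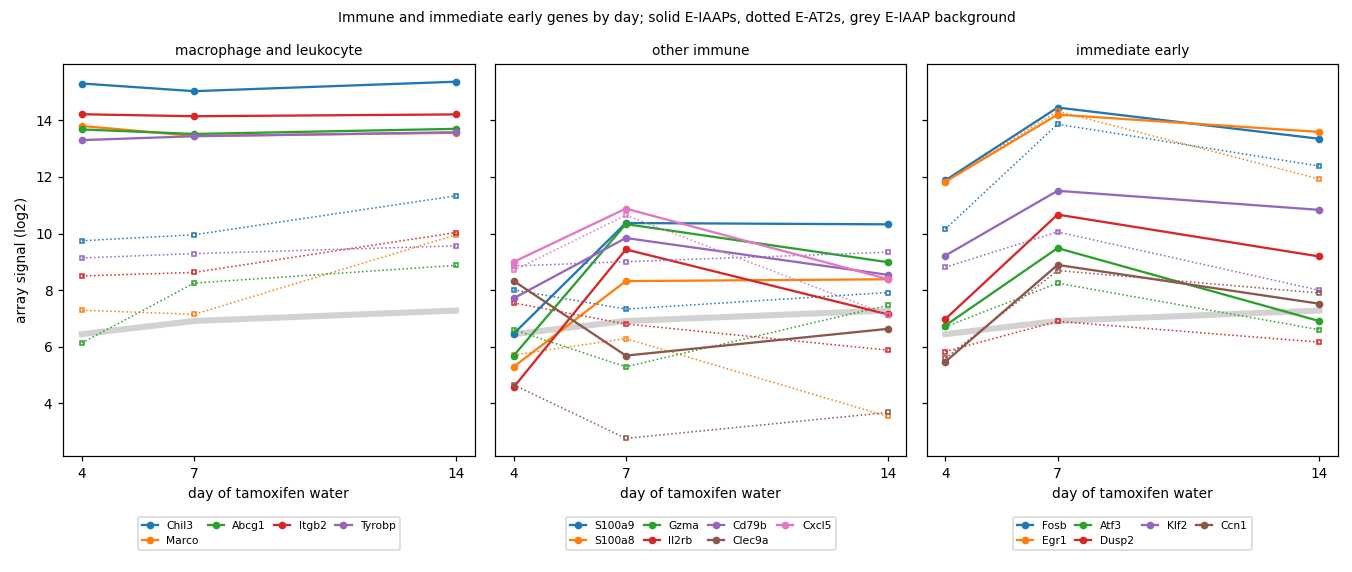
Log2 array signal against day of tamoxifen water for macrophage and leukocyte genes, other immune genes and immediate early genes, 1 array per point, with E-IAAPs solid, E-AT2s dotted and the E-IAAP background in grey. Macrophage genes are level in E-IAAPs, S100a9 goes from 6.46 to 10.37 at day 7, and Fosb and Egr1 are highest at day 7 in both populations.

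Day 7 stood apart in immediate early genes, which cells switch on within minutes of a stimulus. Of 28 with a signal of 8, 13 were higher at day 7 than day 4 and 0 lower, against 4.92% higher over all genes, and 14 of the same 28 were higher at day 7 in E-AT2s, against 5.48% there. Fosb, an AP-1 subunit, read 11.88, 14.45 and 13.35 in E-IAAPs and 10.16, 13.87 and 12.39 in E-AT2s. Egr1 read 11.83, 14.20 and 13.59 and in E-AT2s 11.83, 14.33 and 11.93. Atf3, a stress factor, read 6.75, 9.49 and 6.91. Dusp2, a MAP kinase phosphatase of white cells, read 6.98, 10.67 and 9.19, against 5.84, 6.90 and 6.17 in E-AT2s.

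Haemoglobin genes had their lowest values at day 7. Of 6 red blood cell genes with a signal of 8, 5 were lower at day 7 than day 4, against 2.97% of all genes. Hba-a1 read 12.11, 9.13 and 10.17 in E-IAAPs and 12.36, 6.15 and 8.94 in E-AT2s, and Hbb-b1 8.49, 3.83 and 8.06. The haemoglobin genes are near copies, so their spots may share target. Other genes far higher at day 7 than day 4 were Meg3, at 4.35, 9.00 and 8.25, and Pgm5, at 3.89, 8.39 and 6.91, where Pgm5 in E-AT2s read 3.81, 9.24 and 8.60.

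Of 33 genes of S phase and mitosis with a signal of 8, 8 were higher at day 7 than day 4 (against 4.92% of all genes) and 9 at day 14 than the mean of the earlier days (against 6.68%), with 0 lower in each. Medians over 50 genes were 0.61 and 0.65. Late rises numbered 3 and stepwise rises 0, and the median of day 14 against day 7 alone was 0.29. Birc5, the survivin of dividing cells, read 11.08, 11.77 and 12.62, Ccna2, cyclin A2, 7.15, 8.64 and 9.27, and Cdca8 7.98, 9.27 and 9.70. In E-AT2s the day 7 median was 2.14, with 24 of the 33 higher against 5.48% of all genes, and Birc5 read 7.95, 12.54 and 11.58. Ccnd1 and Ccnd2, the D cyclins, were level, Ccnd1 at 11.41, 11.11 and 11.36.

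Among 16 target genes of FGF receptor signaling with a signal of 8, 0 were past 2-fold at day 14. Etv5 read 12.38, 12.39 and 11.85, and Dusp6, a feedback phosphatase, 11.32, 11.83 and 11.73. Of 25 unfolded protein response genes 0 were past 2-fold at day 14, with Hspa5, the chaperone BiP, at 12.49, 12.70 and 12.77. Of 25 genes used by every cell 0 were higher and 1 lower at day 14, against 3.73% lower over all genes. The lower gene was Tbp, at 8.07, 9.45 and 7.54, and Actb read 14.43, 14.39 and 14.53.

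**Figure D5:**
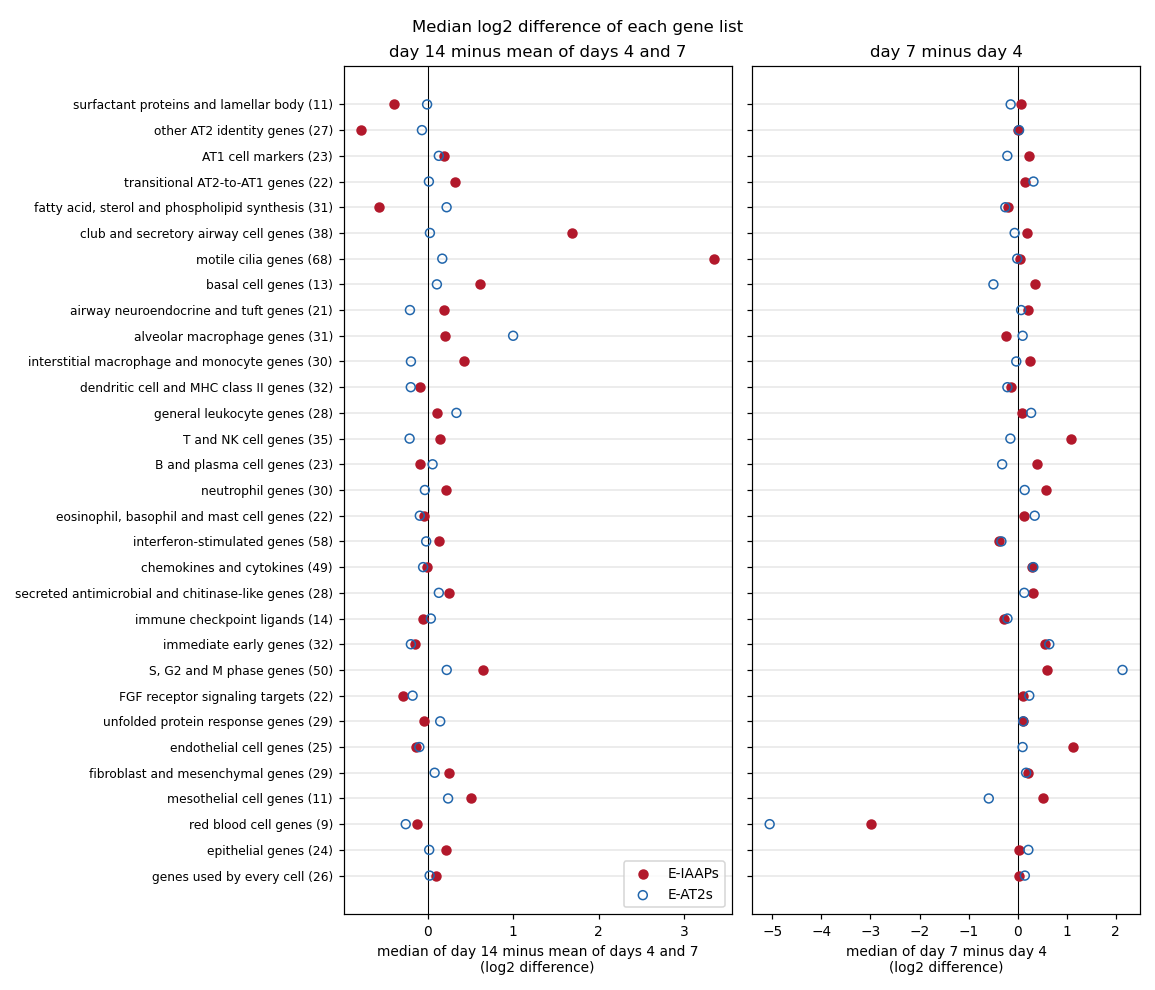
Median log2 difference of each of 31 gene lists, without those chosen after values were seen, over all its genes on the array (number in brackets), for day 14 against the mean of days 4 and 7 (left) and day 7 against day 4 (right), in E-IAAPs (filled) and E-AT2s (open). Motile cilia (3.35) and club genes (1.69) lie farthest right at day 14 in E-IAAPs, AT2 identity (-0.78) and lipid synthesis (-0.57) farthest left, and red blood cell genes are lowest at day 7 in both.

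Of the 15 largest late falls, 5 lay on chromosome Y and 6 had clone names. Fzd2, a Wnt receptor, read 7.56, 8.21 and 4.96, below background at day 14, against 7.72, 6.94 and 8.12 in E-AT2s. Sgpp2, a sphingosine phosphate phosphatase, read 8.18, 8.19 and 5.44 and was at least 1.87-fold lower. Tdrd5 read 8.69, 8.79 and 6.15, and Lsmem1 8.52, 8.58 and 6.12.

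Of 20 secreted antimicrobial and chitinase-like genes 6 were higher at day 14 (against 6.68% of all genes) and 1 lower (against 3.73%), and with a mean signal of 8 it was 4 and 1 of 18, several of them shared with the club and neutrophil lists. Of 8 fibroblast genes 1 was lower at day 14, Col6a2, a collagen VI chain, at 10.16, 10.11 and 8.82. None of 2 mesothelial genes and none of 3 eosinophil, basophil and mast cell genes was past 2-fold at day 14, and Tpsb2, a mast cell tryptase, was higher from day 7 at 10.33, 12.05 and 11.98.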

How the data were processed

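The deposited values were log2 signals of 62976 spots on 8 1-colour (Cy5) Agilent arrays. Per the methods, the authors amplified the RNA (Ovation PicoSL WTA V2), scanned the slides, corrected the log2 mean spot signals for background with normexp on negative controls, and quantile-normalized them with limma, whose version is not given in the sources used here. Quantile normalization gives every array the same distribution, so a shift of all genes cannot be seen. Arrays have no count depth, and 1 array per day limits the precision. For the steps made here, 43941 spots with 1 gene symbol were named through RefSeq (33708 by accession, 9763 by current symbol, 463 by synonym, 7 as given) and 19035 were not used. Where a gene had several spots, that brightest on average across 8 arrays was used, which gave 24306 genes, and those with a signal of 8 or more on at least 1 E-IAAP array entered the counts. Differences were taken on the log2 scale with Python 3.11.15 and pandas 2.3.3, with no test. A fold from below background was given as a lower bound, with the dim side raised to the background level of its array. In the 31 gene lists, genes outside the named spots were not analysed here. Members and lists were chosen with earlier results of these data known, and 5 lists (clock, sex-linked, multiciliated regulators, Notch, foreign compound metabolism) after values were seen. Named genes were the 15 largest late rises and falls, the 8 largest at day 7 and in each transient class, up to 4 brightest and 6 largest of each list, and genes the study names. Dnah5, Cdhr3, Dnah11, Muc5b, Sqle and the promoter genes Lrriq1, Hydin, Pifo, Enkur, Tekt4, Ak9, Cfap45, Zmynd10, Ccno and Spag6l were added after their values were seen, and the cell type markers were named as a check. Class functions were tested on simulated data. Alternatives tried were other scalings, spot choices, filters, folds and single earlier days.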

Additional observations from a re-analysis of the deposited data

Results flagged for a closer look

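Pgc, pepsinogen C, differed at day 14 by -3.30 in E-IAAPs and by 2.04 in E-AT2s, past 2-fold against each earlier day in opposite directions, with 1 array per day. Its signals were 4.60, 8.09 and 3.05 in E-IAAPs and 4.80, 4.20 and 6.54 in E-AT2s, so that 1 of these 6 values, day 7 in E-IAAPs, lay above the array background. The difference between the populations was not tested.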

How the results depend on the processing

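No paired analysis was possible because each group and day had 1 array and all arrays carry replicate number 1. The main counts were 619 higher and 346 lower at day 14, 456 higher and 275 lower at day 7, 462 late rises, 202 late falls, 125 peaks, 111 troughs, 50 stepwise rises and 5 stepwise falls. Signals below background, the top of the scale and a single array per day limit them.

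The counts follow the filter and the fold. The mean of all spots of a gene gave 230 lower at day 14, 248 higher and 161 lower at day 7, 125 late falls, 83 peaks, 57 troughs, 27 stepwise rises and 3 stepwise falls. With no filter on low signals there were 2277 higher and 1588 lower at day 14, 2397 and 1712 at day 7, 1452 late rises, 802 late falls, 889 peaks, 726 troughs, 114 stepwise rises and 24 stepwise falls. A mean signal of 8 or more left 290 higher at day 14, 246 higher and 144 lower at day 7, 199 late rises, 55 peaks, 43 troughs, 16 stepwise rises and 2 stepwise falls. A signal of 9 on at least 1 array left 393 higher and 207 lower at day 14, 247 and 142 at day 7, 305 late rises, 120 late falls, 58 peaks, 56 troughs and 2 stepwise falls. Signals below 8 set to 8 gave 374 higher and 174 lower at day 14, 198 and 109 at day 7, 305 late rises, 100 late falls, 58 peaks, 18 troughs, 5 stepwise rises and 1 stepwise fall. At 1.5-fold there were 1150 higher and 1099 lower at day 14, 1131 and 910 at day 7, 780 late rises, 674 late falls, 391 peaks, 366 troughs, 156 stepwise rises and 45 stepwise falls. At 3-fold there were 387 higher and 64 lower at day 14, 161 and 58 at day 7, 33 late falls, 30 peaks, 19 troughs, 8 stepwise rises and 0 stepwise falls. The share of higher calls at day 14 was 51.1% at 1.5-fold, 85.8% at 3-fold and 55.0% with a mean signal of 8. The other 40 counts stayed within 1.5 times the main count.

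Among the list medians that of the sex-linked list changed sign, at 3.57 with a mean signal of 8. Some day 14 medians near 0 crossed it too. That of the alveolar type 1 genes was 0.19 over all on the array and -0.03 with a mean signal of 8. The day 14 medians of the cilia list (1.49 to 3.59), the club list (0.52 to 1.87), AT2 identity (-0.90 to -0.78) and lipid synthesis (-0.82 to -0.36) kept their sign. Of the named gene differences past 2-fold, 7 changed sign. At day 14, Meg3 gave -0.25 with signals below 8 set to 8 and -0.75 against day 7 alone, S100a9 gave -0.046 against day 7 alone, Hbb-b1 gave -0.19 with signals below 8 set to 8 and -0.43 against day 4 alone, and Atf3 gave 0.16 against day 4 alone. At day 7, Kit gave -0.86 with the brightest spot chosen over the E-IAAP arrays. Smaller named differences changed sign too, such as Gzma at day 14, at 0.98 in the main setting and -1.34 against day 7 alone. The cause was not tested.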

Other observations

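In a list of 18 circadian clock genes chosen after values were seen, 13 reached a signal of 8 in E-IAAPs, of which 3 were higher and 1 lower at day 14, against 6.68% higher and 3.73% lower over all genes. Dbp, a clock output factor, read 8.36, 10.53 and 11.83 in E-IAAPs and 8.97, 10.85 and 12.67 in E-AT2s. Arntl, the positive arm of the clock (Bmal1), read 8.24, 6.88 and 5.57 in E-IAAPs and 9.38, 8.19 and 6.30 in E-AT2s. Per2, of the negative arm, read 7.03, 8.86 and 9.55 in E-IAAPs and 6.96, 8.53 and 9.31 in E-AT2s, and Tef 7.87, 9.96 and 10.53 in E-IAAPs. Dbp and Arntl were at opposite ends of the days in both populations.

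Notch pathway genes, another list chosen after values were seen, had 2 of 7 higher at day 14, against 6.68% of all genes. Both reached a signal of 8 at day 14 alone, and with a mean signal of 8 it was 0 of 5. Hey1, a Notch target, read 4.33, 6.16 and 9.44 and was at least 6.77-fold higher, and Nrarp 4.83, 7.75 and 8.62. Jag1, a ligand, read 10.76, 10.74 and 11.73, and Hes1 8.56, 9.81 and 9.99. Hey1 in E-AT2s was below background on every day, at 1.87, 3.19 and 4.38.

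In the sex-linked list, also chosen after values were seen, 1 of 3 was higher and 1 lower at day 14. Over all genes it was 6.68% and 3.73%. Uty, on chromosome Y, read 7.02, 5.88 and 2.19, whereas the spot named Kdm5d, also of chromosome Y, read 12.74, 12.73 and 12.68, level over the days.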
